A study of Mus musculus with 7 samples.

Results

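Genes that are read as signs of β-cell maturity or of its loss, 9 in all, were followed in mouse islets in which Wnt4 had been inactivated. The maturation markers were Ucn3, Esrrg, Syt4, G6pc2 and Trpm5, and the markers of immature or dedifferentiated β-cells were Aldh1a3, Neurog3, Npy and Gast. They were found by matching the accession of every non-control spot of the 7 arrays to these 9 symbols, and all their probes were kept. The 9 genes, of 22911 genes that could be named, were carried by 11 probes of 56605, since Esrrg and G6pc2 had a pair of probes each. All 11 probes entered the test.

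The arrays held RNA of whole islets from 3 control and 4 Wnt4βKO mice, 1 mouse an array, which were collected at 7 weeks of age. The study describes the Wnt4βKO mice of the arrays as males and states that a further control sample was left out after failing quality tests. Both groups carried 2 floxed copies of Wnt4 (Wnt4 fl/fl), came from the same litters and crosses to C57BL/6J, and were given tamoxifen (50 mg/mL) by gavage from 4 to 5 weeks of age. Only the Wnt4βKO mice carried Pdx1CreER, a Cre recombinase that tamoxifen switches on and that the Pdx1 promoter drives in β-cells. Pdx1 is also made by some δ-cells, and the controls carried no Cre, so that an effect of Cre itself and one of the loss of Wnt4 cannot be told apart. Whole islets hold α-, δ-, PP-, endothelial and other cells besides β-cells, and in such bulk RNA fewer cells of a type and less RNA per cell cannot be told apart.

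Newborn β-cells make insulin but secrete it poorly in response to glucose, and they gain this response in the weeks after birth. Maturation brings in a set of genes for metabolism, exocytosis and paracrine signals, while genes of the endocrine progenitor are shut off. In diabetic mice β-cells can lose mature genes and again express progenitor genes or hormones that adult β-cells do not make, which is called dedifferentiation. Wnt4, a secreted signal of the Wnt family, is itself expressed by maturing β-cells, and the comparison asks whether these markers differ once it is lost after maturation has begun.

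Wnt4 was the check of the labels. Its log2 normalized intensity (the level of a probe on an array, after background correction and scaling between arrays) was 11.55, 11.17 and 11.80 in the controls and 11.32, 10.82, 11.01 and 10.90 in the Wnt4βKO mice. The mean of the Wnt4βKO mice was 71.0% of the control mean, a log2 difference of -0.49 ± 0.17 (SE), with an unadjusted p of 0.0237 and an adjusted p of 0.651 by limma, and 1 Wnt4βKO mouse lay above the lowest control. The position of this probe with respect to the floxed exons is not given in the sources used here. All 7 arrays were on 1 slide and were read in 1 scan, their pairwise correlations ran from 0.962 to 0.984, and between 45.5% and 49.0% of non-control spots were well above background. The islet hormones were present throughout, with Ins1 between 15.02 and 15.60. The levels of genes of other cell types set a pair of arrays apart. Wnt4βKO replicate 1 had the lowest mean level for 7 of 10 marker lists, those of δ-, acinar, duct, endothelial, mesenchymal, immune and neural cells. Wnt4βKO replicate 4 had the next lowest acinar mean and the highest immune mean, 8.76 against 7.47 to 7.81 in the other arrays.

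None of the 11 marker probes passed an adjusted p of 0.05 by limma, and 1 of 11, that of Trpm5, passed an unadjusted p of 0.05. Over all 26151 tested probes 0.0153% passed the adjusted and 7.02% the unadjusted threshold. The control and Wnt4βKO mice overlapped at each of the 11 probes, while 7.24% of all tested probes separated the groups. The share of marker probes past the unadjusted threshold was thus near that of all probes. The number of arrays limits the precision, and the 95% interval is given for the genes with brighter spots.

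**Figure D1:**
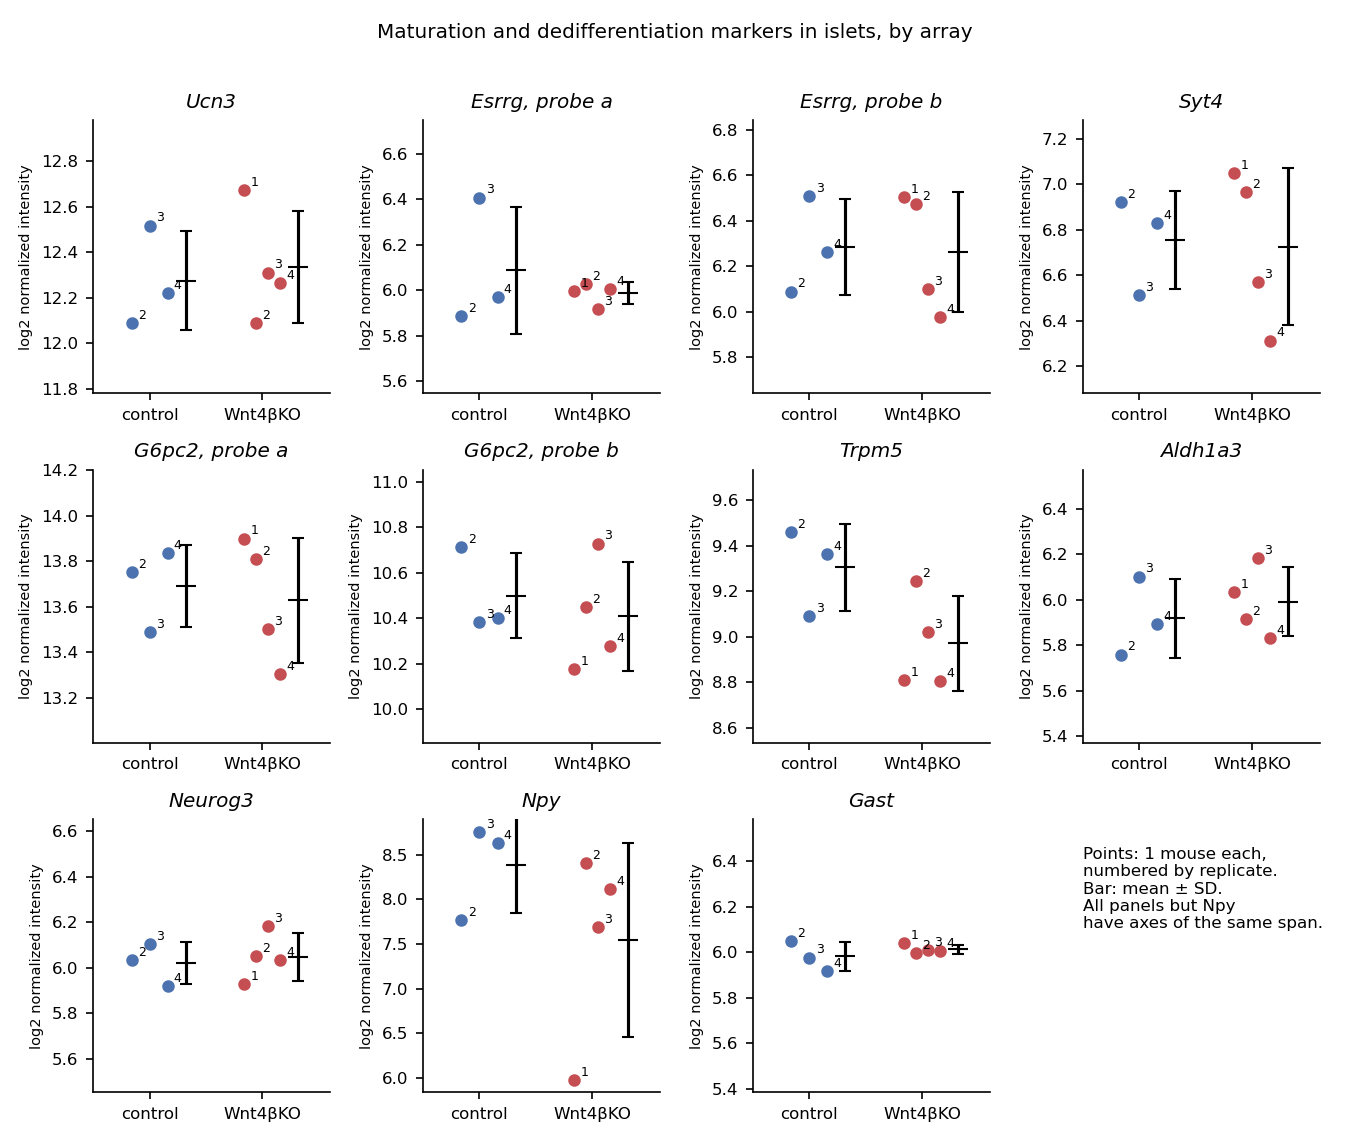
Log2 normalized intensity of each of the 11 probes on the 7 arrays, with 1 panel a probe. Blue points are the 3 control mice and red points the 4 Wnt4βKO mice, numbered by replicate, and black bars give the mean and SD of each group. The groups overlap in every panel, and Npy in Wnt4βKO replicate 1, at 5.98, lies farthest from the other arrays.

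Ucn3 encodes urocortin 3, a peptide that mature β-cells secrete together with insulin and that makes δ-cells release somatostatin. Its level was 12.09, 12.52 and 12.22 in the controls and 12.67, 12.09, 12.31 and 12.26 in the Wnt4βKO mice. The highest array was a Wnt4βKO mouse and the lowest a control, and the ranges covered each other almost whole. The group means were 12.27 ± 0.22 (SD, n = 3) and 12.33 ± 0.25 (SD, n = 4). The log2 difference of 0.06 ± 0.16 (SE) had an adjusted p of 0.966 by limma. Its 95% interval ran from -0.32 to 0.43, which corresponds to 0.804 to 1.35 times the control level. With the mean level of the acinar markers as a covariate the difference was -0.22 ± 0.18. The acinar means of the groups did not overlap, so that this fit cannot tell the group from the acinar level. The genes nearest in pattern to Ucn3 over the 7 arrays were BC025920 (correlation 0.956), Zfp653 (0.954) and Dlgap3 (0.954), a scaffold protein of synapses.

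Urocortin 3 acts on the receptor that Crhr2 encodes, while Crhr1 encodes the related receptor for corticotropin-releasing hormone. Crhr1 was 6.82, 6.29 and 6.23 in the controls and 5.90, 6.04, 6.03 and 5.98 in the Wnt4βKO mice, so that the groups did not overlap. The difference was -0.46 ± 0.15, with an unadjusted p of 0.0152 and an adjusted p of 0.608 by limma. Crhr2 lay between 6.12 and 6.17 in the controls and between 6.22 and 6.35 in the Wnt4βKO mice, also without overlap, and differed by 0.11 ± 0.07 with an adjusted p of 0.796 by limma. Both receptor genes were dim, and Crhr1 was well above background on 6 of 7 arrays. Crhr1 in the Wnt4βKO mice was at the level of Gast, 5.92 to 6.05, which lay close to the floor of the arrays. Crhbp, which encodes a protein that binds these peptides, differed by -0.05 ± 0.07 (adjusted p = 0.913 by limma) and was well above background on 3 arrays. For the other ligand genes, Crh, Ucn and Ucn2, no array had a spot well above background. Of the 3 genes tested in this list, 1 was lower and none higher at an unadjusted p of 0.05 by limma, against 4.61% lower and 4.38% higher of 13666 genes tested with 1 probe each.

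G6pc2 encodes the islet glucose-6-phosphatase, which returns glucose-6-phosphate to glucose. Its pair of probes is called a (A_52_P498119) and b (A_55_P2058761). Probe a gave 13.75, 13.49 and 13.84 in the controls and 13.90, 13.81, 13.50 and 13.30 in the Wnt4βKO mice. Probe b gave 10.71, 10.38 and 10.40 in the controls and 10.18, 10.45, 10.73 and 10.28 in the Wnt4βKO mice. The groups overlapped at both. The differences were -0.06 ± 0.16 for probe a and -0.09 ± 0.15 for probe b, with adjusted p of 0.965 and 0.935 by limma. The intervals ran from 0.734 to 1.25 times control for probe a and from 0.735 to 1.20 for probe b. Although both differences were small, the pair ordered the mice differently. Wnt4βKO replicate 1 was the highest array at probe a and the lowest at probe b, and the correlation of the probes over the 7 arrays was -0.08. Which of them reports the gene better was not tested.

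Within the glucose-6-phosphate cycle, 5 of 8 genes were tested, with a median difference of 0.14 against 0.01 over all genes. Of the 5, 1 was lower and none higher at an unadjusted p of 0.05 by limma, against 4.61% and 4.38% of all genes. The lower gene was Slc37a4, which encodes the transporter that carries glucose-6-phosphate to the enzyme in the endoplasmic reticulum. Slc37a4 was 10.22, 10.59 and 9.66 in the controls and 9.78, 9.65, 9.45 and 9.76 in the Wnt4βKO mice, with overlap. It differed by -0.50 ± 0.21, with an unadjusted p of 0.048 and an adjusted p of 0.703 by limma. G6pc3, the form found in most tissues, differed by -0.03 ± 0.13 (adjusted p = 0.976 by limma). The liver form, G6pc1, was at background on all 7 arrays.

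Syt4 encodes synaptotagmin 4, which lowers the sensitivity of insulin granule release to calcium and rises as β-cells mature. Its level was 6.92, 6.51 and 6.83 in the controls and 7.05, 6.97, 6.57 and 6.31 in the Wnt4βKO mice. The Wnt4βKO mice held both the highest and the lowest array. The difference was -0.03 ± 0.20, from 0.710 to 1.35 times control, with an adjusted p of 0.987 by limma. Without the offset of 50 that the background correction adds, which narrows differences between dim spots, it was -0.10 ± 0.37. Of 16 synaptotagmins 10 were tested and none passed an unadjusted p of 0.05, with a median of -0.07. Syt7, a calcium sensor of insulin release, differed by -0.07 ± 0.09, Syt9 by -0.07 ± 0.07 and Syt13 by -0.11 ± 0.24, with adjusted p from 0.897 to 0.952 by limma. Syt7 and Syt9 were dim, where the offset narrows differences, and Syt9 was well above background on 3 of 7 arrays.

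Across the 7 arrays Syt4 and G6pc2 probe a followed each other. The Pearson correlation was 0.973, and 0.977 after the group means were taken off. Among 11892 other genes compared, G6pc2 was the nearest to Syt4 and Syt4 the nearest to G6pc2, followed by Cry2 (0.972) and Uimc1 (0.969) for G6pc2 and by Pkmyt1 (0.965) and Slc35e3 (0.960) for Syt4. The highest of so many correlations over 7 arrays is high whatever the genes are, so these are given as a description. Cry2, which encodes a repressor of the circadian clock, spanned 8.62 to 10.93. The level of G6pc2 probe a also followed the place of the array on the slide. The 3 arrays of the first slide row lay above all 4 arrays of the second, by 0.34 on the mean, and 10.6% of tested probes separated the rows. Syt4 was 0.37 higher in the first row, with overlap. The part of the slide row in this pattern was not tested. Probe b of G6pc2 had a correlation of 0.00 with Syt4.

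**Figure D2:**
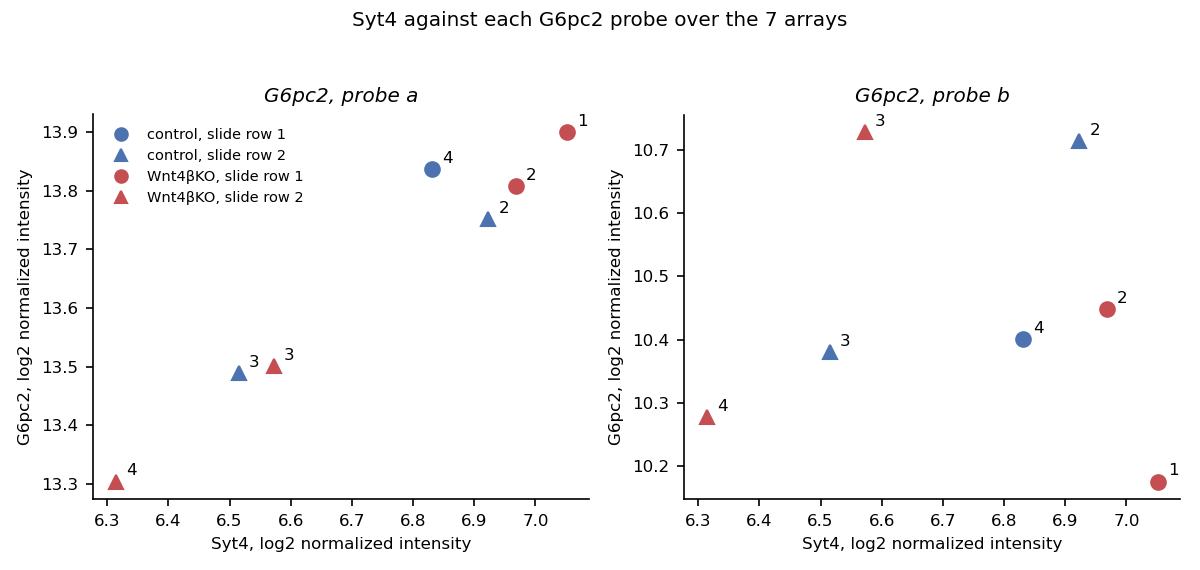
Log2 normalized intensity of Syt4 (x axis) against that of G6pc2 (y axis) for probe a on the left and probe b on the right, with 1 point an array, coloured by group and shaped by slide row. Probe a rises with Syt4 over all 7 arrays, from 13.30 to 13.90, while probe b does not.

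Esrrg encodes the oestrogen-related receptor γ, a nuclear receptor that switches on mitochondrial genes in postnatal β-cells. Its probes were dim. Spot intensities ran from 25 to 64 at probe a (A_55_P2006499) and from 24 to 69.5 at probe b (A_55_P2799081). The median of 308 negative control spots was 19 to 20. Local background was 24 to 25 at probe a, where all arrays but control replicate 3, at 64, had spots of 25 to 31. At probe b it was 21 to 25. The scanner's flag called each probe well above background on 6 of 7 arrays, although most spots of probe a lay within a few counts of it. Probe a gave 5.89, 6.41 and 5.97 in the controls and 6.00, 6.03, 5.92 and 6.01 in the Wnt4βKO mice. Probe b gave 6.09, 6.51 and 6.26 in the controls and 6.50, 6.47, 6.10 and 5.98 in the Wnt4βKO mice. Control replicate 3 was the highest array at both probes, and the groups overlapped. The differences of -0.10 ± 0.13 and -0.02 ± 0.17 had adjusted p of 0.916 and 0.987 by limma. Without the offset the differences were -0.26 ± 0.40 and -0.13 ± 0.44, and with the scanner's processed signal -0.29 ± 0.48 and -0.44 ± 0.63.

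Of the other oestrogen-related receptors and their coactivators, 8 of 9 were tested. Against 4.38% higher and 4.61% lower of all genes at an unadjusted p of 0.05 by limma, 1 of the 8 was higher and none lower. This was Ppargc1b, which encodes the coactivator PGC-1β, at 6.14, 6.42 and 6.44 in the controls and 6.94, 6.62, 6.60 and 6.86 in the Wnt4βKO mice, without overlap. The difference was 0.42 ± 0.12, or 1.34 times control, with an unadjusted p of 0.00956 and an adjusted p of 0.589 by limma. Esrra, the receptor α, differed by 0.28 ± 0.18 (adjusted p = 0.822 by limma). The median of the list was 0.09.

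Trpm5 had the lowest p of the markers. It encodes a cation channel that opens when intracellular calcium rises and supports insulin secretion. Its level was 9.46, 9.09 and 9.36 in the controls and 8.81, 9.24, 9.02 and 8.81 in the Wnt4βKO mice. Of the 4 Wnt4βKO arrays 3 lay below every control, and replicate 2 lay between the controls. The group means were 9.30 ± 0.19 (SD, n = 3) and 8.97 ± 0.21 (SD, n = 4). The difference of -0.33 ± 0.14 (SE) placed the Wnt4βKO mean at 79.3% of control, with a 95% interval from -0.66 to -0.01, an unadjusted p of 0.0468 and an adjusted p of 0.702 by limma. Within the slide rows the difference was -0.34 in the first (1 control and 2 Wnt4βKO mice) and -0.36 in the second (2 and 2). It stayed negative under each of 19 alternative treatments of the data, from -0.47 to -0.08. Treatments that changed only the filter or the variance model kept it at -0.33, so that its sign could not turn in them. Of the 19 alternatives, 7 gave an unadjusted p under 0.05 by limma, some of them with this same difference of -0.33. Trpm5 missed that threshold when any 1 of control replicates 2 and 4 and Wnt4βKO replicates 1, 3 and 4 was left out.

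The arrays with low Trpm5 were also those with low acinar markers. The mean level of 22 acinar genes ran from 13.29 to 13.46 in the controls and from 12.32 to 13.22 in the Wnt4βKO mice. Of the 22, 19 were lower in the Wnt4βKO mice, 6 of them at an unadjusted p of 0.05 by limma, against 4.61% of all genes. The summed level of the list ran from 18.72 to 18.87 in the controls and from 18.08 to 18.72 in the Wnt4βKO mice on the log2 scale, and all 22 were well above background on every array. Wnt4βKO replicates 1 and 4, both at 8.81 for Trpm5, had the lowest acinar means, 12.32 and 12.60. With the acinar mean as a covariate the difference of Trpm5 was -0.08 ± 0.15, with an unadjusted p of 0.622 by limma. The acinar means of the groups did not overlap, so that this fit cannot tell the group from the acinar level. The part of acinar cells in the level of Trpm5 was not tested. The genes nearest in pattern to Trpm5 were Cckar (correlation 0.985), the receptor for cholecystokinin, Col7a1 (0.980), a collagen, and Tead2 (0.979), a transcription factor. Each of these was lowest in Wnt4βKO replicates 1 and 4. Of 7 TRPM channels 6 were tested and none passed an unadjusted p of 0.05 by limma. Trpm4, the closest relative of Trpm5, was 8.03, 8.17 and 8.21 in the controls and 8.42, 8.19, 8.37 and 8.69 in the Wnt4βKO mice. Its difference was 0.28 ± 0.12, with an unadjusted p of 0.0538 and an adjusted p of 0.722 by limma. Trpm2 differed by 0.15 ± 0.15 (adjusted p = 0.896 by limma).

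**Figure D3:**
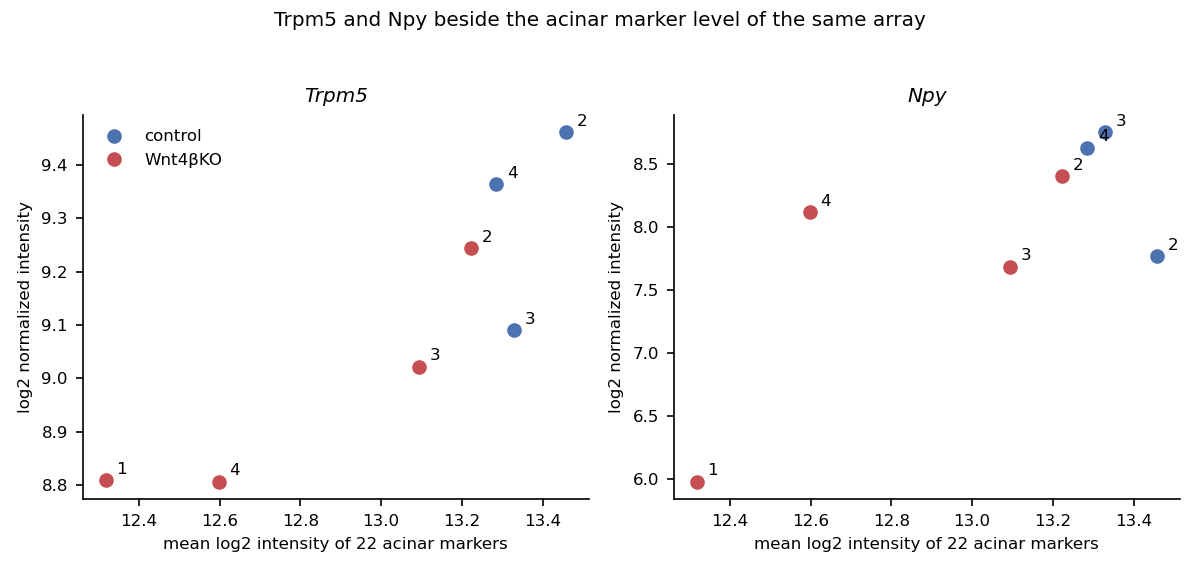
Log2 normalized intensity of Trpm5 (left) and Npy (right) on the y axis against the mean log2 intensity of 22 acinar markers on the same array, with controls in blue, Wnt4βKO mice in red and replicate numbers beside the points. Wnt4βKO replicates 1 and 4 have the lowest acinar means, 12.32 and 12.60, and the lowest Trpm5, while Npy is low in replicate 1 alone of these.

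Among the markers of immature cells, Npy varied most. It encodes neuropeptide Y, which is made by fetal and newborn β-cells, by sympathetic nerves and by some other islet cells. Its level was 7.77, 8.76 and 8.63 in the controls and 5.98, 8.41, 7.69 and 8.12 in the Wnt4βKO mice. Wnt4βKO replicate 1 stood far below all other arrays, and the rest of the Wnt4βKO mice lay within or close to the control range. The unscaled spot intensity was 145, 531 and 353.5 in the controls and 28, 307.5, 169 and 214 in the Wnt4βKO mice. The residual SD of 0.91 was at the 99.6th percentile of all tested probes. The difference was -0.84 ± 0.58, with a wide interval from 0.220 to 1.42 times control and an adjusted p of 0.841 by limma. Without the offset it was -1.39 ± 0.91, and with the scanner's processed signal -1.55 ± 1.19. Without Wnt4βKO replicate 1 it was -0.31 ± 0.30. Within the slide rows it was -1.44 in the row that held this array (1 control and 2 Wnt4βKO mice) and -0.36 in the other (2 and 2).

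Wnt4βKO replicate 1 also had the lowest acinar, mesenchymal and neural marker means. The mesenchymal mean was 6.70 in this array and 6.97 to 8.03 in the others, and the neural mean 6.73 against 6.92 to 7.52. Of 8 neural and glial genes 6 were tested, and 4 of these were well above background on all 7 arrays. The other genes, Gfap, of glia, and Dbh, the enzyme that makes noradrenaline, were at background on all 7 arrays. With the acinar mean as a covariate the difference of Npy was 0.11 ± 0.67. This fit cannot tell the group from the acinar level, since the acinar means of the groups did not overlap. The part of acinar, mesenchymal and neural cells in the level of Npy was not tested. Nearest in pattern were Srsf9 (correlation 0.993), a splicing factor, Prkci (0.981), a protein kinase, and Rnase4 (0.979), a secreted ribonuclease that ran from 9.05 in Wnt4βKO replicate 1 to 11.61. Of the hormones of the same family, Pyy ran from 14.40 in Wnt4βKO replicate 2 to 14.99, and Ppy from 14.83 in Wnt4βKO replicate 1 to 15.19. They differed by 0.08 ± 0.15 and 0.04 ± 0.11, with adjusted p of 0.944 and 0.967 by limma. Dpp4, which encodes a peptidase that cuts these peptides, was 6.96, 7.00 and 6.85 in the controls and 6.60, 6.53, 6.63 and 6.42 in the Wnt4βKO mice, without overlap. It differed by -0.39 ± 0.08, with an unadjusted p of 0.00174 and an adjusted p of 0.48 by limma. The receptor genes Npy1r, Npy2r, Npy4r, Npy5r and Npy6r were not well above background on enough arrays to be tested.

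Aldh1a3, Neurog3 and Gast lay close to the floor of the arrays in both groups. Aldh1a3 encodes a retinaldehyde dehydrogenase and is a widely used marker of dedifferentiated β-cells. It was well above background on 5 of 7 arrays, with spot intensities from 19 to 38, and its level was 5.76, 6.10 and 5.89 in the controls and 6.03, 5.92, 6.18 and 5.83 in the Wnt4βKO mice. The difference was 0.07 ± 0.12 with an adjusted p of 0.933 by limma. Without the offset of the background correction the difference was 0.50 ± 0.52, and a change of that size was not detectable at this signal.

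Neurog3 encodes neurogenin 3, the transcription factor that starts endocrine differentiation in the embryo. Its level was 6.03, 6.10 and 5.92 in the controls and 5.93, 6.05, 6.18 and 6.03 in the Wnt4βKO mice. Its spots ran from 22 to 36 in intensity and were well above background on 5 arrays. The difference was 0.03 ± 0.09, and 0.12 ± 0.29 without the offset, with an adjusted p of 0.969 by limma. Of 13 targets of neurogenin 3 that were listed, 11 were tested and none passed an unadjusted p of 0.05 by limma, with a median difference of 0.18. Neurod1, which acts next after neurogenin 3 and stays on in adult islets, differed by -0.04 ± 0.35 and Insm1 by 0.24 ± 0.17 (adjusted p = 0.991 and 0.847 by limma). Pax4, a further target and a factor of endocrine progenitors, was at background on all 7 arrays.

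Gast encodes gastrin, a hormone that the fetal pancreas makes and that can reappear in β-cells under diabetes. Its level was 6.05, 5.98 and 5.92 in the controls and 6.04, 6.00, 6.01 and 6.01 in the Wnt4βKO mice. All spots were between 25 and 31 in intensity, and the residual SD was at the 3.00th percentile of tested probes. The genes nearest in pattern were Gnb1l (correlation 0.986), Nhlrc2 (0.976) and Rpl36 (0.969). Gast itself spanned 0.13 over the arrays, close to the floor, so these are given as a description only. The difference was 0.03 ± 0.07 with an adjusted p of 0.952 by limma, and 0.16 ± 0.21 without the offset. The related hormone gene Cck and the gastrin receptor gene Cckbr were at background on all 7 arrays. The other receptor gene, Cckar, was 7.45, 6.87 and 7.45 in the controls and 6.22, 7.27, 6.73 and 6.13 in the Wnt4βKO mice. The difference was -0.67 ± 0.29, with an unadjusted p of 0.0553 and an adjusted p of 0.728 by limma. Cckar was lowest in Wnt4βKO replicates 1 and 4, the arrays with the lowest acinar means, and the part of acinar cells in its level was not tested.

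**Figure D4:**
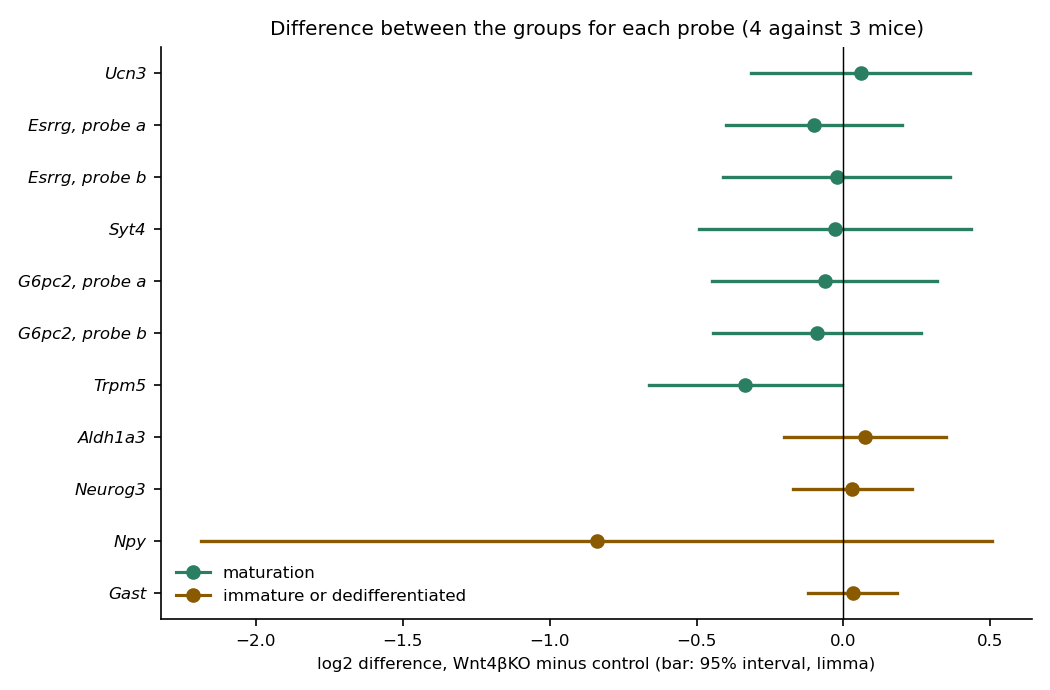
Log2 difference of the Wnt4βKO mice minus the controls for each of the 11 probes, with 95% intervals from limma as bars, maturation markers in green and markers of immature cells in brown. All intervals but that of Trpm5, which ends at -0.01, hold 0, and the interval of Npy is the widest, from -2.19 to 0.51. The offset of the background correction narrows the differences and intervals of dim spots, those of Esrrg, Syt4, Aldh1a3, Neurog3 and Gast. A short bar there is no measure of precision.

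Among genes related to Aldh1a3, 14 of 18 retinaldehyde dehydrogenases and retinoid genes were tested, with a median of 0.06. Of the 14, 2 were lower and 1 higher at an unadjusted p of 0.05 by limma, against 4.61% and 4.38% of all genes. The lower genes were dehydrogenases. Aldh1a7 was 6.98, 6.84 and 7.26 in the controls and 5.98, 6.61, 6.26 and 6.06 in the Wnt4βKO mice, without overlap, and differed by -0.80 ± 0.17, with an unadjusted p of 0.00203 and an adjusted p of 0.48 by limma. Aldh1a1 differed by -0.53 ± 0.17 (adjusted p = 0.623 by limma). Their sequences are close, so that the probes may share signal, and both were lowest in Wnt4βKO replicates 1 and 4, the arrays with low acinar markers. The higher gene was Rarg, a retinoic acid receptor, which differed by 0.37 ± 0.16 (adjusted p = 0.702 by limma). Aldh1a2 differed by 0.07 ± 0.10 (adjusted p = 0.923 by limma).

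Among other genes of β-cell maturity 1 passed the adjusted threshold. Of 24 such genes, all tested, 3 were lower and none higher at an unadjusted p of 0.05 by limma. Over all genes 4.61% were lower and 4.38% higher. The median of the list was -0.03. Slc2a2, which encodes the glucose transporter GLUT2, was 9.92, 9.95 and 9.88 in the controls and 8.18, 8.42, 8.32 and 8.57 in the Wnt4βKO mice. Its difference of -1.54 ± 0.10, to 34.4% of control, had an adjusted p of 0.00697 by limma. Ero1b, an oxidase for the folding of proinsulin, differed by -0.86 ± 0.27 and Glp1r, the receptor for glucagon-like peptide 1, by -0.47 ± 0.18, with adjusted p of 0.608 and 0.675 by limma.

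Other genes of the immature or dedifferentiated state were 24, of which 15 were tested. One, Myc, was lower at an unadjusted p of 0.05 by limma, by -0.27 ± 0.11 (adjusted p = 0.686 by limma), and none was higher. Over all genes 4.61% were lower and 4.38% higher. The median of the list was 0.04. Sox11, Hes1, Mycl, Hk2, Slc16a1, Pdgfra, Cck and Pax4 were at background on all 7 arrays, and Bach2 was well above it on 1. Pou5f1, the pluripotency factor Oct4, was singled out after its values were seen. It was 5.98, 5.98 and 5.92 in the controls and 6.02, 5.98 and 5.97 in Wnt4βKO replicates 1 to 3, but 10.79 in Wnt4βKO replicate 4. The difference of 1.23 ± 1.17, with an adjusted p of 0.887 by limma, rested on that 1 mouse, which also had the highest immune marker mean.

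**Figure D5:**
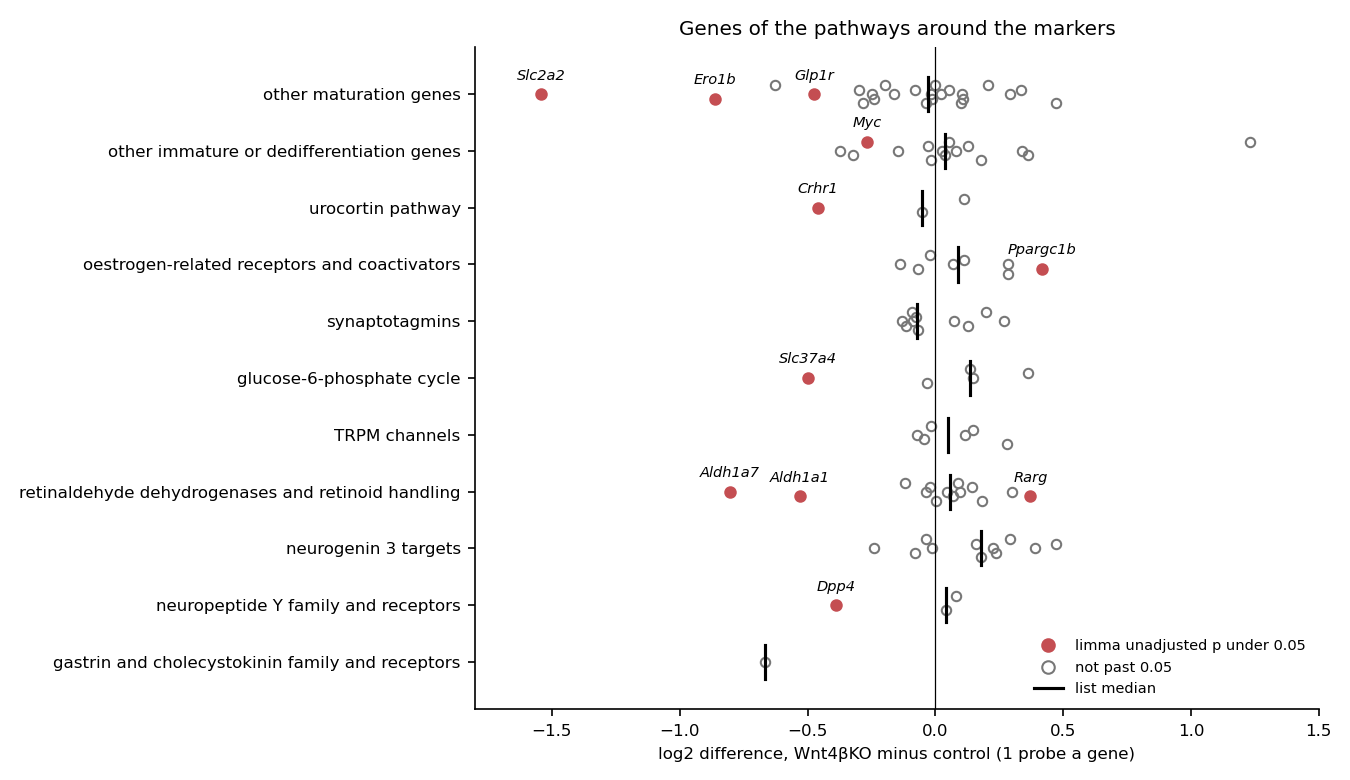
Log2 difference of the Wnt4βKO mice minus the controls for every tested gene of 11 lists around the markers, with 1 probe a gene, red points past an unadjusted p of 0.05 by limma, open points not past it, and a black line at the median of each list. The medians lie near 0 in most lists, and the far left point is Slc2a2 at -1.54.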

How the data were processed

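The authors deposited 1 scanner output per array, with spot intensity on a linear scale that Agilent Feature Extraction 12.0.1.1 (per the file headers) wrote without normalization between arrays. A table of processed values was not used, since its columns could not be matched to these arrays. Cy3-labelled cRNA had been made from 50 ng of RNA per the labels.

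Median spot and local background intensities were corrected with normexp (offset 50) in limma 3.58.1 (R 4.3.3), taken to log2 and quantile normalized over non-control spots. Flagged spots were dropped (0 of the markers), and spots of a probe averaged. A probe was tested if at least 3 of the 7 arrays had it well above background, with lmFit, eBayes and Benjamini-Hochberg adjustment, as Wnt4βKO minus control. In gene lists the brightest tested probe stood for a gene, and marker means left out probes with a missing value. Scripts were tested on simulated data. RefSeq accessions named 32994 of 56605 probes. Mice were separate per the labels.

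The markers and gene lists were chosen with earlier results of these data known. Genes named were all marker probes, Wnt4, fixed receptors and relatives, listed genes past an unadjusted p of 0.05 (at most 6 a list, or every gene of a list with at most 3 tested), and the 3 genes nearest in pattern to each marker that was measured on every array. Some genes of the lists are not reported here and were left out of the counts.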

Additional observations from a re-analysis of the deposited data

Results flagged for a closer look

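For 54 probes of named genes the farthest of the 4 Wnt4βKO arrays was set against the range of that group by Dixon's ratio, and 3 were past its 95% critical value for 4 samples, which chance passes in about 1 of 20. Pou5f1 is 1 of the 3 and was included for its outlying value, so that it does not count against that rate. None was a probe of the 9 markers. The ratio was 0.989 for Pou5f1 (replicate 4 at 10.79, the others at 5.97 to 6.02), 0.949 for Rarg (replicate 2 at 7.95, the others at 8.21 to 8.22) and 0.839 for Glp1r (replicate 1 at 6.92, the others at 7.09 to 7.12).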

How the results depend on the processing

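No marker probe passed an adjusted p of 0.05 by limma in any of 20 alternatives. The count at an unadjusted p of 0.05 was 1 (Trpm5) and fell to 0 with no background correction, with a normexp offset of 0, with the processed signal at the 75th percentile, with median scaling, with a trended and robust variance, with the replicate block and with the acinar mean as a covariate, and it was 0 to 1 when 1 array was left out. The 19 alternatives over all probes gave 675 (acinar covariate) to 2921 (no filter on dim probes) unadjusted calls, with 770 under median scaling, against 1835, and 2 to 7 adjusted calls against 4. A pairing of the mice by replicate number was not shown. Deviations of same-numbered mice correlated at -0.13, 0.23 and -0.01, and those of the other pairs ran from -0.31 to 0.16. The controls held no replicate 1, so that the replicate block takes Wnt4βKO replicate 1 out of the contrast. This block left 2 adjusted calls and turned Ucn3 to -0.055, against -0.056 with that array left out. Signs turned for Npy with the acinar covariate and otherwise for differences of at most 0.10 in size, and the cause was not tested. G6pc2 probe a came to 0.00023 with the processed signal and 0.00057 with median scaling, and Syt4 to 0.0093 with cyclic loess. With the acinar covariate, a fit that cannot tell the group from the acinar level, Ucn3 came to -0.22, G6pc2 probe b to 0.19 and Npy to 0.11. When 1 array was left out, the log2 difference ran from -0.056 to 0.18 for Ucn3, -0.21 to 0.054 for Esrrg probe a, -0.13 to 0.083 for Esrrg probe b, -0.14 to 0.11 for Syt4, -0.17 to 0.043 for G6pc2 probe a, -0.20 to 0.016 for G6pc2 probe b, -0.0068 to 0.16 for Aldh1a3, -0.020 to 0.071 for Neurog3 and -0.0010 to 0.067 for Gast. In these, Trpm5 and Npy kept their sign. A block for slide or scan could not be fitted, since all arrays shared 1 of each.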
